A study of Homo sapiens with 3 samples.

Results

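Genes of nucleotide synthesis and one-carbon metabolism were examined in 3 RNA libraries of HEK293 cells, an established human line from embryonic kidney. The members are 54 named genes of purine, pyrimidine and deoxynucleotide synthesis, the folate and serine pathways and the methionine cycle. A gene was taken as a member where its symbol stood in the count table, which held for 53 of 54 names among 17595 genes. NME2, which encodes a nucleoside diphosphate kinase, has no row. The cells were grown in DMEM with glutamine and fetal calf serum, without a treatment or an engineered allele named in the labels, and the 3 libraries form 1 group. For each, 1000 cells were lysed with ERCC control RNA, and cDNA of 100 of them went through 18 cycles of PCR before the 5′ ends of RNAs were sequenced. The table's columns carry the index of a library (20, 21 and 23) but no replicate number, and the labels do not say if cultures were separate. All spreads given here therefore measure the spread between these libraries, which may be technical.

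Purine nucleotides are built stepwise on phosphoribosyl pyrophosphate until inosine monophosphate (IMP) is made, from which AMP and GMP branch off. Pyrimidines are made as a ring that is then joined to the sugar phosphate, and ribonucleotide reductase converts ribonucleotides into the deoxynucleotides used for DNA. Serine hands carbon units to folate, and folate carries them to purines, to thymidylate and to the methionine cycle, the source of methyl groups. Salvage enzymes rebuild nucleotides from free bases and nucleosides. Dividing cells in culture use all of these routes.

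Endogenous counts, which leave out the spiked RNAs, were 1475769, 1330877 and 1545594 in libraries 20, 21 and 23. Levels are counts per 1000000 endogenous counts (CPM), given as mean ± SD over the 3 libraries. A single count equalled 0.647 to 0.751 CPM. Each RNA gives a tag at its 5′ end only, so levels were not divided by transcript length. A second scale, the spike-scaled number of molecules per cell, sets a gene's counts against the counts of the spikes, which the labels give as 20000 molecules per cell. On that scale 1.91 CPM corresponded to a single molecule per cell. HEK293 has no single defining marker. VIM had 1478 counts over the 3 libraries and the neurofilament genes NEFL and NEFM had 147 and 156. Of the blood markers PTPRC, CD3E and HBB none was listed, and neither were the liver markers ALB and TTR or the epithelial markers CDH1 and KRT19. EPCAM had 3 counts, APOA1 had 4 and COL1A1 had 17.

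Nearly all members were detected at moderate to high levels, with the salvage gene APRT and the purine synthesis gene PAICS on top and the mitochondrial enzymes TK2 and ALDH1L2 at the bottom. All 53 members with a row had counts in each of the 3 libraries, against 72.6% of all genes in the table. Of the 53, 51 averaged at least 10 CPM, where 44.6% of all genes did, and 30 averaged at least 100 CPM, where 9.91% did. The median over the 53 members was 139 ± 13.0 CPM, while the median over all 17595 genes was 6.89 ± 0.20 CPM (SD, n = 3). Together the members took 0.858%, 0.882% and 0.868% of endogenous counts in libraries 20, 21 and 23, or 4551 ± 214 spike-scaled molecules per cell. The 5 most abundant members made up 33.5% of that sum and the 10 most abundant 49.1%. The list was put together from enzymes of a growing cell, so these counts describe it and are not evidence that it stands apart.

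**Figure D1:**
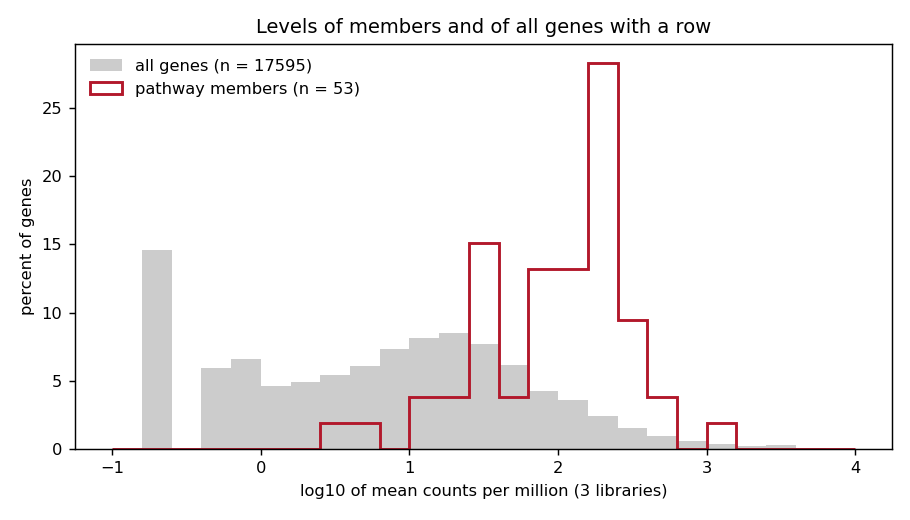
Histogram of the log10 mean CPM of all 17595 genes (grey bars) and of the 53 pathway members with a row (red outline), each as a percent of its own set. The members sit mostly between 10 and 1000 CPM, and 2 lie below 10 CPM.

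Before the values by pathway, the DNA before the annotated starts of some of these genes is shown, because 5 members share a start region with a gene on the opposite strand. The counts are per gene and give no positions of tags, so the starts used in these libraries were not seen. Promoter windows of 300 bases (250 before the start and 50 after it) were found in RefSeq tables on build GRCh38.p14 for 47 members. ADSL, IMPDH2, RRM2B, SHMT2, ALDH1L2, MTRR and PSPH had none there. An opposite start at most 250 bases upstream, of a gene with a row in the table, was found for 5 of 47 members (10.6%) and for 731 of 6017 genes at or above 10 CPM (12.1%). The stretches between the paired starts follow, on the minus strand, which is that of the member named in front. Capitals mark GGGCGG and CCAAT on either strand, the letters of a GC box and of a CCAAT box.
PPAT-PAICS, chr4:56435616-56435751: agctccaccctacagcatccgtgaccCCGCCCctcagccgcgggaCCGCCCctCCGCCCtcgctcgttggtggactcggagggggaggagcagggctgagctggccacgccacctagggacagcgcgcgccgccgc
GART-SON, chr21:33542893-33543037: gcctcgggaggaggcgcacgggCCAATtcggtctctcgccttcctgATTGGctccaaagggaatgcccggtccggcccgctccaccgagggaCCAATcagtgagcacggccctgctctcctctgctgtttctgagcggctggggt
DTYMK-ING5, chr2:241686816-241687019: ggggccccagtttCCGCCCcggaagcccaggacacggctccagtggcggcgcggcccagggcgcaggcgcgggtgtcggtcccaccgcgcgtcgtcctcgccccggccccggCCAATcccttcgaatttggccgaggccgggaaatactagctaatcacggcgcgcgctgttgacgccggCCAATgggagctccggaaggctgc
TK1-AFMID, chr17:78187205-78187361: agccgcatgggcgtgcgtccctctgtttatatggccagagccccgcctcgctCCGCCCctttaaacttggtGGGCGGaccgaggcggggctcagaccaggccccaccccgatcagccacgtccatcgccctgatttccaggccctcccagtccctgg

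The stretch between PPAT and PAICS is 136 bases long with 75.0% G and C, and it holds 3 GC boxes and 0 CCAAT boxes. That between GART and SON holds 3 CCAAT boxes and 0 GC boxes. DTYMK-ING5 holds 1 GC box and 2 CCAAT boxes, and TK1-AFMID holds 2 GC boxes and 0 CCAAT boxes. GC boxes were found in the windows of 83.0% of the 47 members and of 79.3% of the 6017 genes at or above 10 CPM. The letters describe the windows and do not show that a factor binds there.

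The paired genes were counted at unlike levels across the same short stretch. PAICS exceeded PPAT in each library by a log2 ratio of 2.63, 2.70 and 2.76, a 6.49-fold difference. GART, which carries out 3 steps of IMP synthesis, lay below SON, a splicing cofactor gene, by log2 ratios of -1.88, -1.68 and -1.78. SON was thus 3.44-fold higher, at 538 ± 46.6 CPM. DTYMK, the thymidylate kinase gene, exceeded ING5, a subunit gene of histone acetyltransferase complexes, by 3.27, 4.58 and 2.82. The ING5 side rests on only 85 counts over the 3 libraries. TK1 exceeded AFMID, which encodes an enzyme of tryptophan breakdown, by 0.79, 0.72 and 0.72, or 1.68-fold. For each of these pairs the member was on the same side in all 3 libraries.

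Other short motifs were searched on both strands in the 77 windows of the 47 members, and none of the strings contains another. The E-box CACGTG, bound by MYC and related factors, was in 12 of the member windows (15.6%, from 9 genes), in 10.4% of the windows of genes at or above 10 CPM and in 7.26% of all 35116 windows. By gene it was found for 19.1% of the 47 members and 14.0% of genes at or above 10 CPM. TTTGGCGC or TTTCCCGC, which E2F factors bind, was in 8 member windows (10.4%, from 7 genes), against 3.99% and 2.27%. By gene these strings were found for 14.9% of the 47 members and 5.37% of genes at or above 10 CPM. The 7 genes were DUT, TYMS, DCK, GART, PRPS2, AHCY and MTR. CCAAT was in 37.7% of member windows, 36.1% of those of genes at or above 10 CPM and 34.6% of all, and TATAAA was in 7.79%, 5.60% and 11.5%. TGATGCAA, a string found in amino acid response elements bound by ATF4, was in 3 member windows, which all belong to MTHFD1L (3.90%, against 0.495% and 0.866%). Counted by gene this was 1 of the 47 members (2.13%), against 0.648% of genes at or above 10 CPM. Windows of a gene often overlap, so they are not independent. Matches before the start were also found for CACGTG in AK4, DCK, DHODH and PPAT, and are not shown. The same holds for the E2F strings in GART, MTR and PRPS2. The other sites before a member's start follow with their flanks, matched letters in capitals, on the strand of the gene.
DUT, plus strand, chr15:48332148-48332169: ggggctgGCGGGAAAtttcggt
DUT, plus strand, chr15:48332163-48332184: tttcggtTTTGGCGCgctccct
TYMS, plus strand, chr18:657607-657628: gacggccGCGGGAAAaggcgcg
ATIC, plus strand, chr2:215312006-215312025: ggcgggcCACGTGataagcc
MTHFD1, plus strand, chr14:64388331-64388350: ccctaagCACGTGggttggg
MTHFD1L, plus strand, chr6:150866325-150866344: ccggctcCACGTGcgcagcc
MTHFD1L, plus strand, chr6:150866350-150866371: ccggctcTGATGCAAtcgcgcc

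De novo synthesis of IMP took 0.180% ± 0.0035 of endogenous counts (SD, n = 3), and its 8 genes spanned 52.3 to 627 CPM. This was the largest share among the 9 pathway groups as counted by members with a row. The nucleotide kinases took 0.0884% ± 0.0034, but 0.217% ± 0.0027, above IMP synthesis, when the NME1-NME2 row described below was added to them, a check chosen after the values were seen. PAICS, whose protein joins a carboxylase and a synthetase of the pathway, led with 655, 609 and 616 CPM in libraries 20, 21 and 23. ADSL, the lyase that acts both before IMP and in the AMP branch, had 335, 313 and 338 CPM. ATIC, which closes the purine ring, had 269, 277 and 277 CPM. These 3 genes made up 68.2% of the counts of the group, and their ranges over the libraries did not overlap. PPAT, the amidotransferase that commits phosphoribosyl pyrophosphate to purines, had 106, 93.2 and 90.6 CPM. PFAS, which makes the amidine intermediate, was the lowest at 44.0, 54.1 and 58.9 CPM. GART had 160, 157 and 151 CPM. The committing enzyme thus ranked seventh of the 8 genes by mean level.

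The phosphoribosyl pyrophosphate synthetases PRPS1 and PRPS2 were both well detected. PRPS1 had 174, 171 and 160 CPM, and PRPS2 had 102, 102 and 98.3 CPM. The log2 ratio was 0.74 ± 0.035, or 1.67-fold, and PRPS1 took 62.6% of their joint counts (exact Clopper-Pearson 95% interval 59.8% to 65.4%). Both genes lie on the X chromosome. Intervals of this kind cover counting error only, and the same form is used for the other ratios.

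The group of branches from IMP to AMP and GMP held IMPDH2, IMPDH1 and GMPS for the GMP side, and only ADSS for the AMP side. ADSL, which also acts in the AMP branch, was counted with IMP synthesis, so the sides were not compared as a whole. IMPDH2, the inosine monophosphate dehydrogenase of dividing cells, had 343, 395 and 333 CPM, and its constitutive relative IMPDH1 had 74.5, 72.9 and 79.6 CPM. IMPDH2 was 4.69-fold higher (log2 ratio 2.23 ± 0.19), with 82.4% of the joint counts (interval 80.6% to 84.1%). GMPS, which converts the product of that enzyme to GMP, had 176, 209.6 and 184 CPM. ADSS, the synthetase that opens the AMP branch, was lowest in the group with 67.1, 72.9 and 60.2 CPM.

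Purine salvage rested on a single gene for most of its counts. APRT, which rebuilds AMP from adenine, was the highest member, with 1180.4, 1154 and 1121 CPM and place 142 among all genes. HPRT1, which salvages hypoxanthine and guanine, had 423, 428 and 396 CPM. ADK, the adenosine kinase gene, had 116, 127 and 109 CPM. The ranges of the 3 genes over the libraries did not overlap. APRT exceeded HPRT1 2.77-fold (log2 ratio of HPRT1 over APRT -1.47 ± 0.035), and HPRT1 held 26.5% of their joint counts (interval 25.4% to 27.5%). On the spike scale APRT had 603 ± 23.02, HPRT1 217 ± 3.19 and ADK 61.3 ± 1.84 molecules per cell. With 0.168% ± 0.0051 of endogenous counts, 3 salvage genes came close to the share of the 8 genes of IMP synthesis.

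Pyrimidine synthesis was the smallest group by share, at 0.0451% ± 0.0024. CTPS1, a CTP synthase known for its role in proliferating lymphocytes, had 177, 191 and 182 CPM. UMPS, which completes UMP, had 157, 184 and 157 CPM. CAD, the large protein that carries the opening steps of the pathway, had 68.4, 77.4 and 83.5 CPM. DHODH, which carries out the step at the inner mitochondrial membrane, was low at 12.2, 11.3 and 10.4 CPM. The genes of the consecutive route from CAD over DHODH to UMPS therefore differed widely in level. CTPS1 exceeded CTPS2 12.8-fold (log2 ratio 3.68 ± 0.26). CTPS2 had 16.3, 14.3 and 11.6 CPM, and CTPS1 held 92.9% of the joint counts (interval 90.95% to 94.5%).

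**Figure D2:**
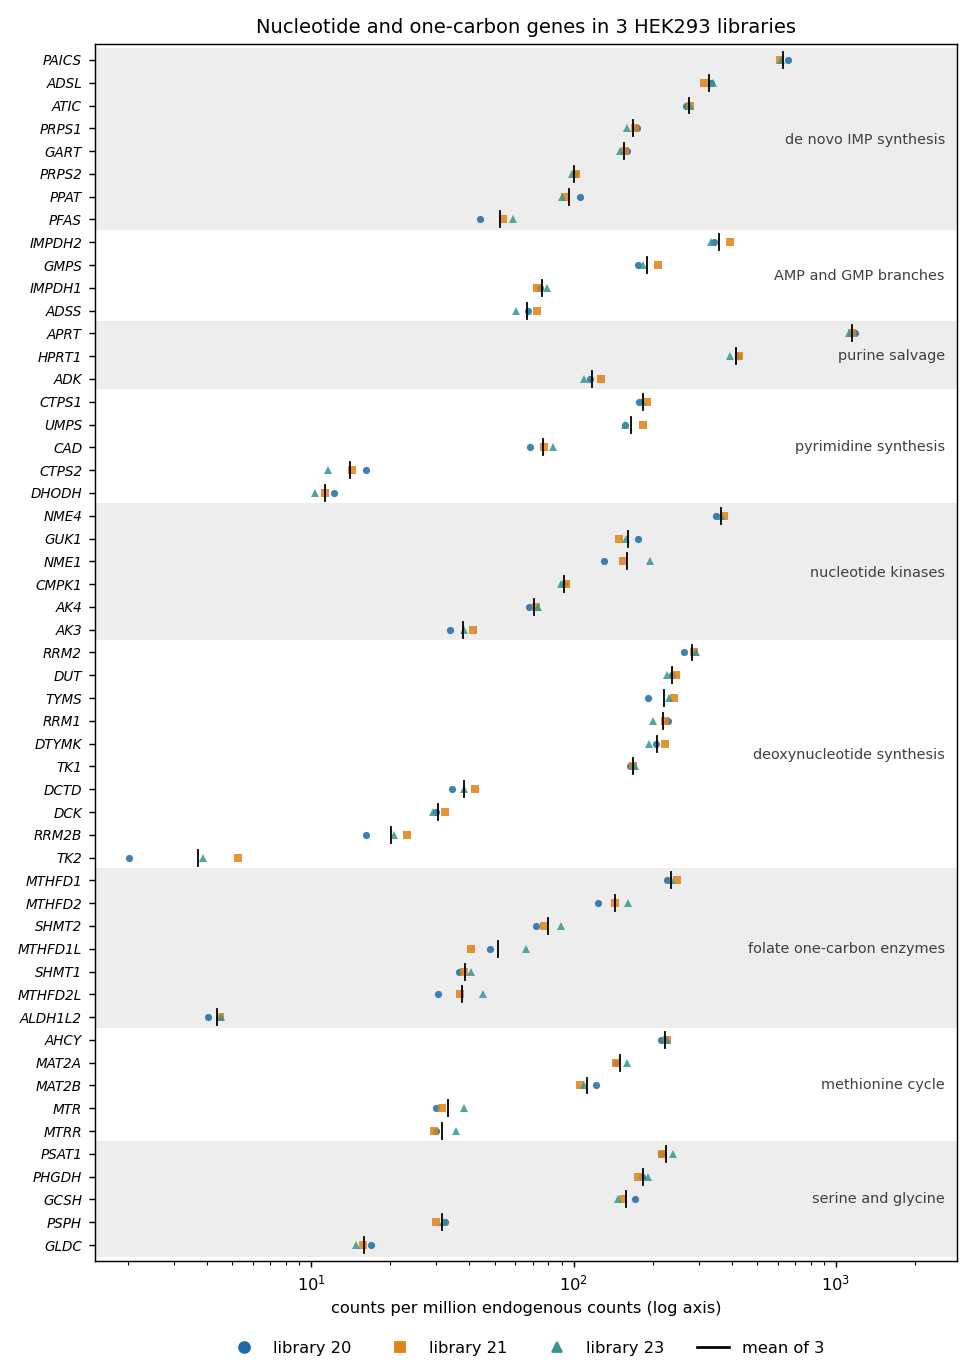
CPM of each of the 53 members on a log axis, ordered by mean within 9 pathway groups, with a symbol for each library and a black bar for the mean of 3. APRT stands above 1000 CPM, TK2 and ALDH1L2 lie below 10 CPM, and the symbols of most genes above 100 CPM lie close together.

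Among the nucleotide kinases with a row of their own, which add phosphates to monophosphates and diphosphates, NME4 led. This mitochondrial nucleoside diphosphate kinase had 349, 376 and 364 CPM. GUK1, the guanylate kinase gene, had 176, 149.5 and 158 CPM, and NME1, a cytosolic nucleoside diphosphate kinase, had 131, 154 and 195 CPM. NME1 was 2.30-fold below NME4 (log2 ratio -1.20 ± 0.27). CMPK1, the kinase for UMP and CMP, averaged 91.8 ± 2.34 CPM. AK4 and AK3, both adenylate kinase family members of the mitochondrial matrix, differed 1.88-fold in favour of AK4. AK4 had 67.8, 72.1 and 73.1 CPM, and AK3 had 33.9, 41.3 and 38.2 CPM.

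A row named NME1-NME2, the readthrough locus that spans both kinase genes, had far more counts than the NME1 row. It had 1304, 1315 and 1238 CPM, above APRT, and stood at place 124 among all genes. On the annotation used for gene names here NME2 overlaps this locus, so counts of NME2, of NME1 and of the readthrough RNA cannot be told apart in that row. NME1 together with NME1-NME2 gave 1435, 1469 and 1432 CPM. The NME1 row was 9.11%, 10.5% and 13.6% of that sum in libraries 20, 21 and 23. Any statement on NME1 alone, the ratio to NME4 included, depends on how the authors' counting split this locus.

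The genes of deoxynucleotide synthesis took 0.143% ± 0.0061 of endogenous counts, and 6 of the 10 lay within a narrow band from 168 to 282 CPM. Ribonucleotide reductase was led by RRM2, its S-phase small subunit, with 264, 288 and 294 CPM, beside the large subunit RRM1 with 229.7, 224 and 201 CPM. The difference was modest, with a log2 ratio of 0.37 ± 0.17 and a share of RRM2 of 56.4% (interval 54.3% to 58.5%), and it had the same direction in 3 of 3 libraries. RRM2B, the small subunit that p53 induces, had 16.3, 23.3 and 20.7 CPM. RRM2 exceeded it 13.9-fold (log2 ratio 3.80 ± 0.19).

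The thymidylate branch was present at even levels. DUT, which removes dUTP and yields dUMP, had 237, 245 and 228 CPM. TYMS, which methylates dUMP to thymidylate, had 192, 241 and 230.3 CPM, and DTYMK, which phosphorylates the product, had 206, 224 and 193 CPM. The range of TYMS over the libraries overlapped those of both others, and DUT was above DTYMK in each library. TK1, the cytosolic thymidine kinase of S phase, had 165, 169 and 171 CPM, while its mitochondrial counterpart TK2 had 2.03, 5.26 and 3.88 CPM. TK1 exceeded TK2 44.0-fold on the log2 mean (5.46 ± 0.61). TK2 had only 16 counts over the 3 libraries, and the counting interval of this ratio ran from 28.0-fold to 80.5-fold. DCTD, the dCMP deaminase gene, and DCK, the deoxycytidine kinase gene, averaged 38.3 ± 3.76 and 30.4 ± 1.68 CPM.

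In the folate pathway the cytosolic enzyme MTHFD1 had the most counts. MTHFD1, which interconverts folate carbon units in 3 reactions, had 226, 247 and 234 CPM. Its mitochondrial relative MTHFD1L, which releases formate, had 48.1, 40.6 and 66.0 CPM, so that MTHFD1 was 4.64-fold higher (log2 ratio 2.21 ± 0.39). MTHFD2, the mitochondrial dehydrogenase common in proliferating cells, had 124, 144 and 162 CPM. Its paralog MTHFD2L had 30.5, 36.8 and 45.3 CPM. MTHFD2 exceeded MTHFD2L 3.82-fold (1.93 ± 0.094) and lay 1.65-fold below MTHFD1 (log2 ratio of MTHFD1 over MTHFD2 0.72 ± 0.17).

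For serine hydroxymethyltransferase, which passes carbon from serine to folate, the mitochondrial form was higher. SHMT2 had 71.8, 77.4 and 89.9 CPM, and the cytosolic SHMT1 had 36.6, 38.3 and 40.8 CPM. The ratio was 2.05-fold (log2 ratio 1.04 ± 0.088), with 67.4% of the joint counts from SHMT2 (interval 63.2% to 71.5%). ALDH1L2, a mitochondrial formyltetrahydrofolate dehydrogenase, had 4.07, 4.51 and 4.53 CPM from 19 counts in all. Mitochondrial forms were thus above the cytosolic counterpart in the SHMT pair and below it in the MTHFD1 and thymidine kinase pairs. NME4, at a mean of 363 CPM, was above the NME1 row but below NME1 together with NME1-NME2, at 1446 CPM. The limit given for the NME1 row holds here as well.

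In the serine route, PHGDH, PSAT1 and PSPH catalyse consecutive steps from the glycolytic intermediate to serine. PSAT1 had 216, 218 and 239 CPM, PHGDH had 182, 177 and 192 CPM, and PSPH had 32.5, 30.1 and 31.7 CPM. PHGDH lay slightly below PSAT1 in 3 of 3 libraries (log2 ratio -0.29 ± 0.038), with 45.0% of the joint counts (interval 42.7% to 47.3%). PSPH, the closing phosphatase, was 7.07-fold below PSAT1 (log2 ratio of PSAT1 over PSPH 2.82 ± 0.094). Of the glycine cleavage system, the carrier protein gene GCSH had 172, 154 and 148 CPM and the decarboxylase gene GLDC had 16.9, 15.8 and 14.9 CPM. GCSH exceeded GLDC 9.77-fold (3.29 ± 0.031). A pseudogene row, GCSHP5, held 18 counts beside 688 of GCSH.

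The methionine cycle was led by AHCY, which breaks down S-adenosylhomocysteine, with 216, 226 and 228 CPM. MAT2A, the catalytic subunit that makes S-adenosylmethionine, had 145, 145 and 159 CPM, and the regulatory subunit MAT2B had 121, 106 and 109 CPM. The log2 ratio of MAT2A over MAT2B was 0.42 ± 0.14. MTR, the methionine synthase that joins this cycle to folate, and MTRR, the reductase that keeps it active, were both low. MTR had 29.8, 31.6 and 38.2 CPM, and MTRR had 29.8, 29.3 and 35.6 CPM. Their log2 ratio of 0.07 ± 0.060 was not above 0 in library 20, where both had 44 counts. The counting interval for the share of MTR was 45.3% to 57.2%, which corresponds to a ratio of 0.826 to 1.34, so neither gene could be placed above the other.

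**Figure D3:**
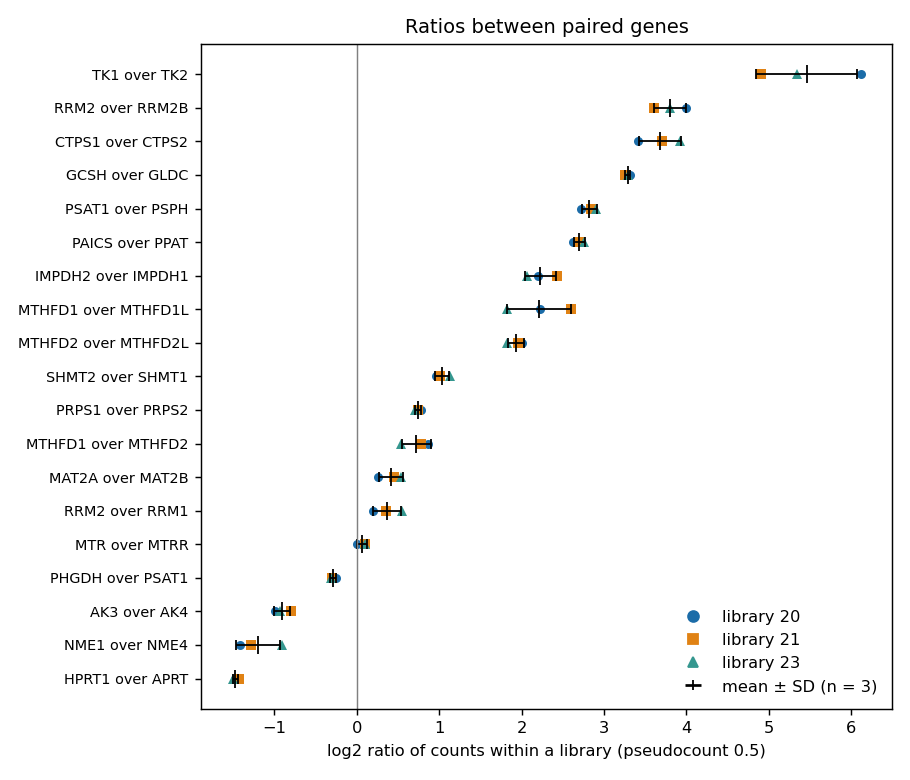
Log2 ratio of counts within a library for 19 pairs of genes, with a symbol for each library and the mean ± SD (n = 3) in black. The ratios run from HPRT1 over APRT at -1.47 to TK1 over TK2 at 5.46, and the MTR over MTRR pair sits next to 0.

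Of the 20 pairs, 19 could be computed, since NME2 has no row. In 18 of 19 the order of both genes was the same in all 3 libraries, and in the same 18 the counting interval left out equal shares. Of the 19 ratios, 8 were at least 4-fold and 7 were under 2-fold. An exact 2-sided sign-flip permutation test over 3 libraries cannot go below p = 0.25, which each of the 18 pairs reached, and MTR over MTRR gave p = 0.50. The pairs therefore stand on the spread between libraries and on counting error, not on a threshold of that test. How efficiently single RNAs were captured differs between genes and was not measured for the members.

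The coefficient of variation of CPM over the 3 libraries had a median of 6.90% over the 53 members. The median biological coefficient of variation that edgeR assigned was 0.052 for the 51 members that passed its filter on low counts and 0.061 for genes at or above 10 CPM. The value follows the level of a gene, and with 3 libraries edgeR draws it close to a trend fitted over level. That trend had a median of 0.053 for the same 51 members. NME1, whose CPM had a coefficient of variation of 20.3% over the libraries, was assigned 0.054. The assigned values therefore say little on the members' own spread. Between at least 1 pair of libraries 1 of 53 members differed beyond counting error, against 0.56% of the 11424 genes tested (exact binomial test, 2-sided, Benjamini-Hochberg adjusted over all genes and pairs). At an unadjusted p under 0.05, 7 of the members differed in some pair, and 15.9% of the genes tested did. The number of genes called was 64 with all libraries, 42 without library 20 and 8 without library 23. The test compares libraries of the same line, not conditions.

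The single member was NME1, with 193 counts in library 20 and 301 in library 23. Its log2 ratio of library 23 over library 20 was 0.57 (exact binomial test, adjusted p = 0.0097). The NME1-NME2 row moved the other way between the same libraries, by -0.08 (exact binomial test, adjusted p = 0.83). When both rows were counted as 1, a check chosen after the values were seen, the log2 ratio was -0.0028 (exact binomial test, adjusted p = 1.0). A change of the NME1 row alone would have moved that sum by only 0.063 on the log2 scale, so the sum says little on NME1 itself.

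No other member passed the test, and those with the lowest adjusted p are given here. They were not chosen by spread. MTHFD2L, for example, had a coefficient of variation of 19.8% over the libraries, against 11.6% for TYMS. MTHFD1L had 54 counts in library 21 and 102 in library 23 (log2 ratio 0.70, exact binomial test, adjusted p = 0.34). TYMS had 284 and 321 counts in libraries 20 and 21 (0.33, adjusted p = 0.40). MTHFD2 had 183 and 250 in libraries 20 and 23 (0.38, adjusted p = 0.41). Of the 7 folate enzymes, 6 had their highest CPM in library 23, as had 20 of all 53 members and 40.5% of genes at or above 10 CPM. The share of the folate enzymes was 0.0541%, 0.0589% and 0.0642% in libraries 20, 21 and 23. Of the 10 deoxynucleotide genes, 7 had their highest level in library 21, as had 20 of all 53 members and 28.2% of genes at or above 10 CPM. The remaining 13 members were highest in library 20, where 31.3% of such genes were.

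**Figure D4:**
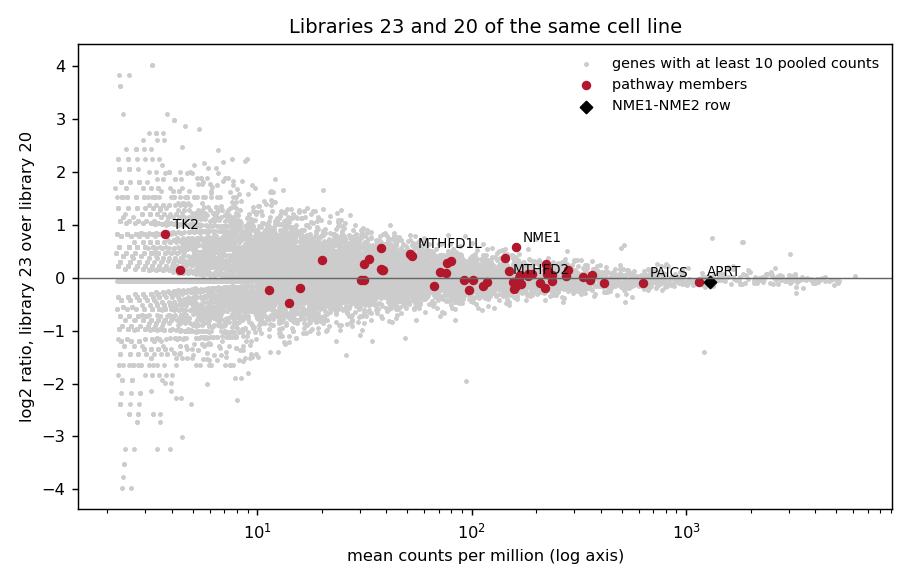
Log2 ratio of library 23 over library 20 against mean CPM (log axis) for genes with at least 10 pooled counts (grey), the members (red) and the NME1-NME2 row (black diamond). NME1 stands at 0.57, above the other members of its level, and NME1-NME2 lies at -0.08.

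Members with longer transcripts tended to lower levels, and so did genes at or above 10 CPM in general. The length of the principal transcript by GENCODE v29 was matched by name for all 53 members and for 92.3% of genes at or above 10 CPM. Where transcripts of a gene shared the best principal rank, the longest was taken. Spearman's rho between length and mean CPM was -0.38 over the 53 members and -0.36 over 7243 genes at or above 10 CPM. Pearson's r of the log2 values was -0.41 and -0.39. Both are across genes, which share the libraries and are not independent replicates. The members were not cut at 10 CPM, so the sets are not fully alike. TK2 and ALDH1L2, with 5114 and 7547 bases, lie below 10 CPM and are among the 53. Members of at most 2736 bases had a median of 161 CPM (27 genes) and longer ones a median of 84.1 CPM (26 genes). APRT has a principal transcript of 947 bases and TK2 one of 5114 bases, whereas PAICS, with 6480 bases, was the runner-up in level. The part of length in the differences between genes was not tested.

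**Figure D5:**
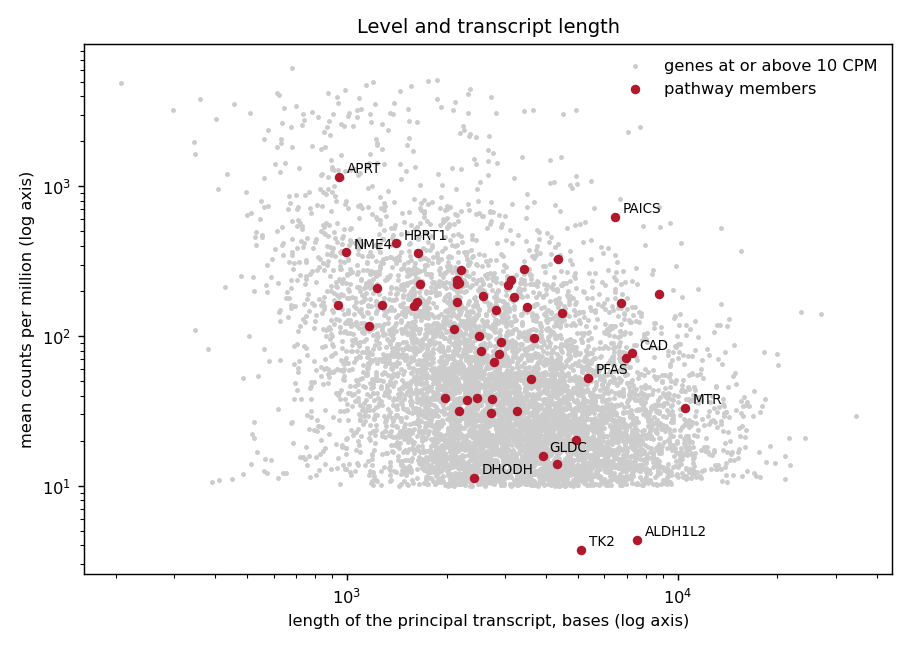
Mean CPM against the length of the principal transcript, both on log axes, for genes at or above 10 CPM (grey) and the 53 members (red). Short APRT is highest, while PAICS with 6480 bases lies well above genes of like length such as CAD.

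Other genes of these routes, from a list of 68 that are no members, were mostly detected as well. Of the 58 with a row, 41 averaged at least 10 CPM and 15 at least 100 CPM, and their median was 35.2 CPM. DCTPP1, which clears modified deoxycytidine triphosphates, had 646, 600.4 and 634 CPM, next to PAICS in level. The polyamine genes SRM, ODC1 and AMD1 had 310.04 ± 39.5, 260 ± 27.0 and 259 ± 15.2 CPM. DLD, a shared subunit that also serves glycine cleavage, had 217 ± 23.6 CPM, DGUOK, the mitochondrial deoxyguanosine kinase gene, 213 ± 18.5 CPM, and GGH, which trims folate polyglutamates, 169.5 ± 10.7 CPM. The transporter genes SLC1A5 and SLC29A1 had 148 ± 8.35 and 144 ± 8.51 CPM. MTAP, which recovers adenine from polyamine synthesis, had 24.4, 27.8 and 31.7 CPM. Of these genes 47 had enough counts for the test between libraries and 1 differed, against 0.56% of all genes tested. It was AHCYL1, an AHCY-like gene, with 56.2, 77.4 and 98.3 CPM (exact binomial test, adjusted p = 0.019).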

How the data were processed

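RNA 5′ ends were measured in 3 HEK293 libraries. The authors deposited raw counts per gene, with no normalization, and the submitters' processing notes name STAR 2.4.0a, cutadapt 1.2.1 and the build hg19 (GRCh37). Which tool and annotation did the counting, and whether strand and molecular identifiers were used, is not stated there. Overlapping genes may therefore share counts, and counts may be of reads or molecules. The exact binomial test and the counting intervals take each count as independent. Where counts are reads, copies from PCR would make the intervals too narrow and the p-values too small, which was not tested. The 7 rows of pseudogenes named after members held 29 counts in all.

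CPM used endogenous totals. Log2 ratios were taken within a library with a pseudocount of 0.5. Libraries were compared by a 2-sided exact binomial test for genes with at least 10 pooled counts, Benjamini-Hochberg adjusted at 0.05 over all genes and the 3 pairs. edgeR 4.0.16 gave coefficients of variation (intercept only, TMM, filterByExpr) and DESeq2 1.42.0 size factors, in R 4.3.3, and Python 3.11.15 with scipy 1.17.1 did the rest. The pair test and the dispersion fit were tested on simulated counts. Lengths came from GENCODE v29 and promoters from RefSeq GRCh38.p14, by name (ADSS under ADSS2). Both are of another build than the counts, and hg19 positions were not used.

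Members, groups, pairs and lists were chosen with earlier results of these data known. Values by library are given for both genes of each pair and the 3 highest genes of each group, and of the other pathway genes MTAP and those among the 10 highest are named, except a few that are not reported here. PFAS, ALDH1L2, GART, ADSS, DHODH, AHCYL1, the divergent neighbours and the GC box were added after values were seen.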

Additional observations from a re-analysis of the deposited data

How the results depend on the processing

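With spikes kept in the total, the shares of counts were 0.837% for all members, 0.174% for IMP synthesis, 0.162% for purine salvage, 0.0530% for the methionine cycle and 0.0591% for serine and glycine. With mitochondrially encoded genes left out of the total they were 0.906%, 0.188%, 0.175%, 0.0573% and 0.0639%, and 0.0921% for nucleotide kinases. Both changes rescale all genes alike, by construction. TMM and DESeq2 size factors moved no member's mean CPM over the 3 libraries by over 0.271%. The library sizes they gave were first rescaled so that their mean stayed at the mean endogenous total. By construction this holds a mean CPM nearly fixed, so the small shift says little on the choice of normalization. Shifts of single libraries in opposite directions can cancel in that mean, so it does not cover the values by library. Pooled counts, a pseudocount of 1 and leaving out each library reversed none of the 19 ratios. With DESeq2 size factors 114 genes differed between libraries, in place of 64, and the cause was not tested. Leaving out each library gave 8 to 59 genes and 0 to 1 members that differed, with fewer pairs of libraries tested, and without library 20 or 23 the single comparison that called NME1 is gone. Counting NME1 with NME1-NME2 gave 0 members, in a sum of which NME1 is a small part, and adding that row to the nucleotide kinases gave 0.217%. No paired analysis was possible because there is 1 group. Depth limits TK2 and ALDH1L2, with 16 and 19 counts.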
